A study of Mus musculus with 4 samples.

Results

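The 9 genes described here make, sense and clear extracellular adenosine: Nt5e, Entpd1, the receptors Adora1, Adora2a, Adora2b and Adora3, and Ada, Adk and Slc29a1. They were chosen by function after Nt5e had been seen to be higher in dendritic cells labelled Rbpj-deficient. Every probe whose RefSeq accession maps to any of these symbols was taken, which gave 11 of the 39429 probes on the array and at least 1 probe for each of the 9 genes. Of the 9 genes, 8 entered the fit over 17973 genes. Adora1 did not, as its probe was not well above background on any array. Since the comparison of the genotypes chose the genes, their differences are given as a description with no test.

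Dendritic cells were grown from bone marrow of 2 kinds of C57BL/6 mice, labelled female and 8 weeks old. BMDC_RFF11 cells carried loxP-flanked Rbpj alleles (Rbpj fl/fl) together with CD11c-cre, a recombinase expressed from the promoter of Itgax, and are labelled Rbpj-deficient. BMDC_RFF cells carried the same flanked alleles with no cre and are labelled control, so both groups are Rbpj fl/fl and the effects of the cre and of Rbpj loss cannot be told apart. Marrow cells of both were cultured for 6 days with 20 ng/mL GM-CSF, a cytokine that turns marrow precursors into dendritic cells, and CD11c+ cells were isolated. Each sample is RNA pooled from 4 mice, and each genotype has 2 one-colour Agilent arrays. Whether both arrays of BMDC_RFF11, or of BMDC_RFF, used the same pool is not given in the labels, so SE and p-values cover the scatter of 2 arrays that may differ only technically. In such bulk RNA, fewer cells of a type and less RNA per cell cannot be told apart.

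Cells release ATP when stressed or activated. On the cell surface CD39, the product of Entpd1, removes phosphates from ATP and ADP to leave AMP, and CD73, the product of Nt5e, turns AMP into adenosine. Adenosine acts on G protein-coupled receptors, of which Adora2a and Adora2b raise cyclic AMP and Adora1 and Adora3 lower it, and signals through the cAMP-raising receptors are known to restrain the T cell-stimulating activity of dendritic cells. Adenosine is then carried into cells by transporters such as Slc29a1 and removed by Ada and Adk.

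Levels are log2 values of the signal divided by the array's own 75th percentile, so that 0 is the signal of that percentile, and differences are BMDC_RFF11 minus BMDC_RFF on that log2 scale. Of the 43020 spots for genes on an array, 57.7% to 58.4% were well above background on BMDC_RFF11 arrays and 55.2% to 58.1% on BMDC_RFF arrays. Rbpj read 1.37 and 1.44 on BMDC_RFF11 arrays, against 2.69 and 2.61 on BMDC_RFF arrays, which left 42.1% of the BMDC_RFF signal. Where its probes lie relative to the flanked exons is not known here. The dendritic cell markers Itgax, Flt3, H2-Ab1, H2-Aa, H2-Eb1, Cd74, Ciita, Cd86 and Ccr7 were well above background on all 4 arrays.

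Nt5e, the enzyme that forms adenosine, had a signal of 352 and 328 intensity units on the BMDC_RFF11 arrays, against 179 and 171 on the BMDC_RFF arrays. Its scaled level was -2.03 and -2.14 on BMDC_RFF11 arrays, against -2.94 and -3.06 on BMDC_RFF arrays. Both BMDC_RFF11 arrays lay above both BMDC_RFF arrays, and the gap of 0.79 between the nearest arrays of the genotypes exceeded the distances of 0.11 and 0.12 between arrays of 1 genotype. The mean was -2.09 ± 0.08 in BMDC_RFF11 cells and -3.00 ± 0.08 in BMDC_RFF cells (SD, n = 2 each), a log2 difference of 0.91 (SE 0.08) or 1.88-fold. Its rank from the highest difference was 219 among the 17973 genes tested. This is the value that chose the set.

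**Figure D1:**
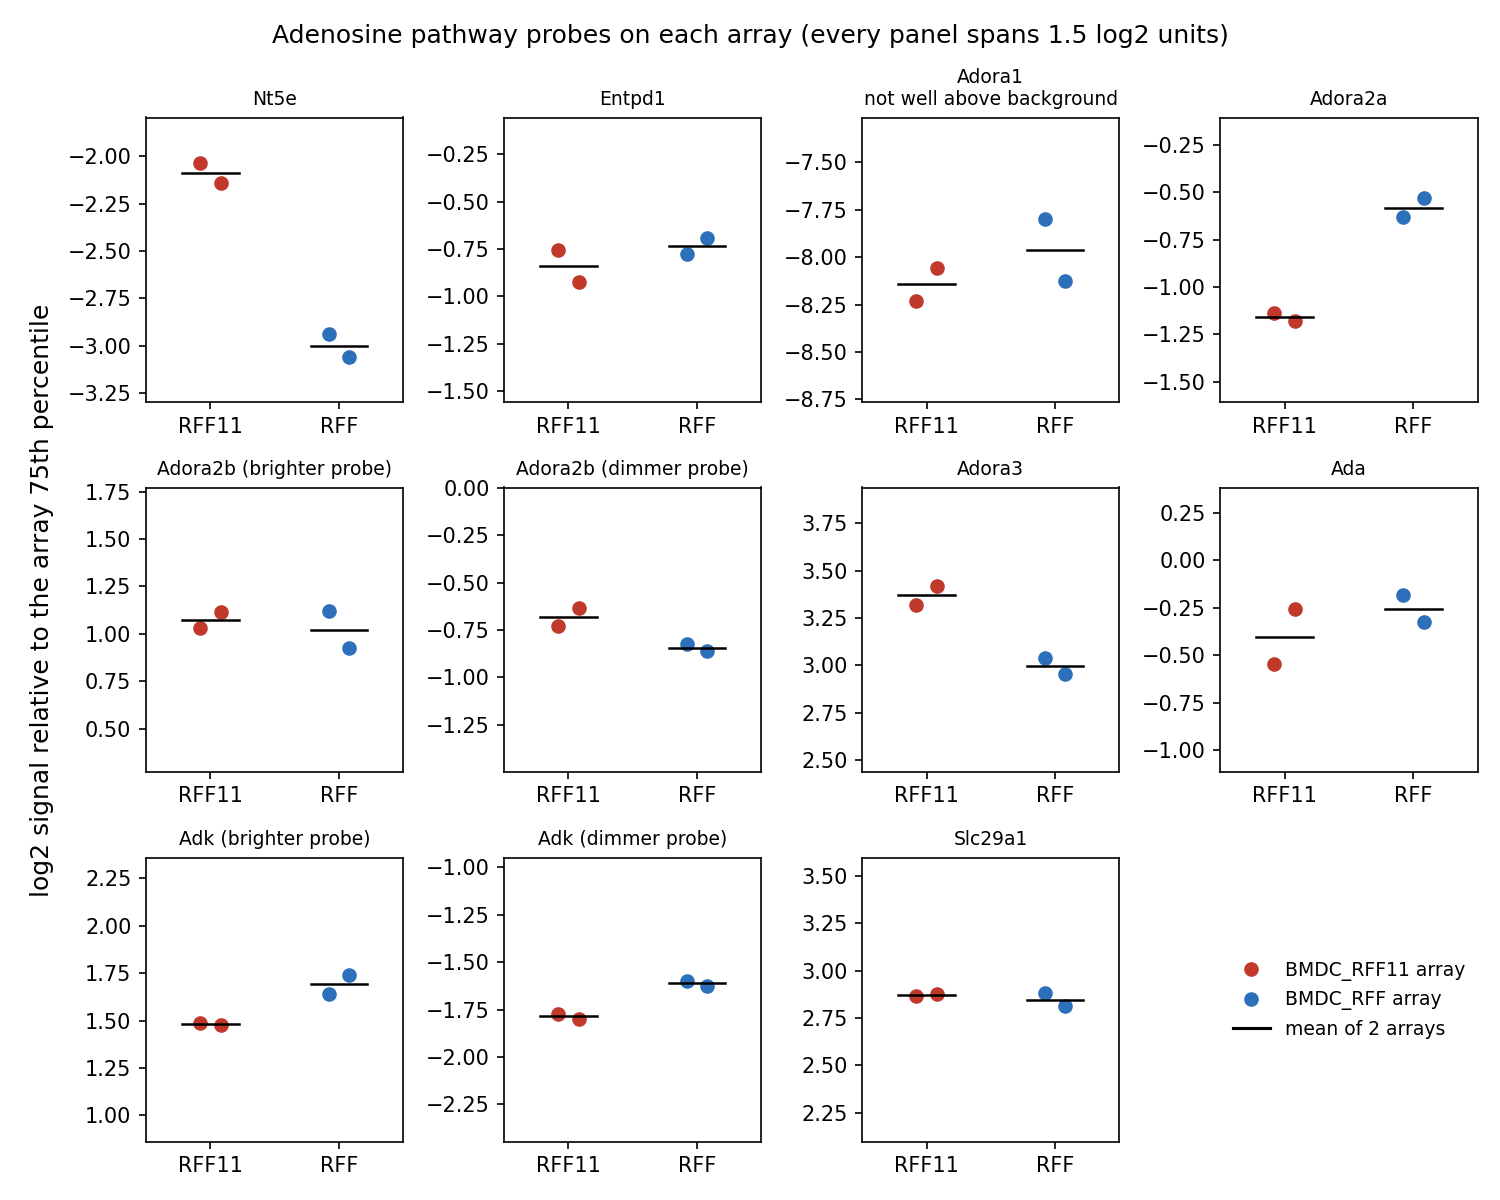
Scaled log2 signal of the 11 adenosine pathway probes on each array, with BMDC_RFF11 arrays in red left of BMDC_RFF arrays in blue and black lines at the mean of 2 arrays; every panel spans the same number of log2 units. The genotypes are farthest apart for Nt5e (difference 0.91) and Adora2a (difference -0.58), lie closer for Adora3 (0.37) and Adk (-0.21), and meet or overlap for Entpd1, Ada and Slc29a1.

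RBPJ, the protein encoded by Rbpj, binds DNA at a core of TGGGAA, often as GTGGGAA, so the RefSeq promoter windows of the genes (GRCm38.p6, 250 bases before to 50 after a start) were searched for both on both strands. Every GTGGGAA match holds a TGGGAA match. The 250 bases before the Nt5e start are shown because Nt5e has the highest difference of the set, those of Adora3 because it has the second highest among the 8 genes, and those of Entpd1, the enzyme acting before Nt5e, because the core stands there in capitals. The Nt5e sequence is chr9:88327359-88327608 on the + strand, the Adora3 sequence chr3:105904171-105904420 on the + strand, and the Entpd1 sequence chr19:40612116-40612365 on the + strand.
Nt5e: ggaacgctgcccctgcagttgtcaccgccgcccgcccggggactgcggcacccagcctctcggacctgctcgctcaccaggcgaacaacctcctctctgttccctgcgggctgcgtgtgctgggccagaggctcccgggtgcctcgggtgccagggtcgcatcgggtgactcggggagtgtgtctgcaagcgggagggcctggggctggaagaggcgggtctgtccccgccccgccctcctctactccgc
Adora3: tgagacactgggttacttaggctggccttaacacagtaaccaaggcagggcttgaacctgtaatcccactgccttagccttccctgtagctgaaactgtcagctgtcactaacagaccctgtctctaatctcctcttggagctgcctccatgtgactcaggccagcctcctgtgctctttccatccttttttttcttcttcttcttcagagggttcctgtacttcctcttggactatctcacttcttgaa
Entpd1: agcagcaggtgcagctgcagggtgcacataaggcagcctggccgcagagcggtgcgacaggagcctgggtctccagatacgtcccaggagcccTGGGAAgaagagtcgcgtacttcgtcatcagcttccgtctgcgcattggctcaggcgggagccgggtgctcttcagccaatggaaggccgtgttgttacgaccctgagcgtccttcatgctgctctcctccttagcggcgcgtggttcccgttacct
The Nt5e and Adora3 windows held neither motif, and the Nt5e window was 71.0% G or C with 23 CpG, against 48.3% and 1 CpG for Adora3 and a median of 52.7% over all windows. The Entpd1 core began at position -157 from the start, and the other Entpd1 window held no core. Windows matched 8 of the 9 genes, and the core was in a window of 3 of them (Entpd1, Adora1 and Slc29a1) and in 5 of their 18 windows. Slc29a1 held the core in several of its windows. Over all genes with windows the core was in a window of 28.3% and the longer motif in a window of 7.2%. Over all windows the core was in 25.6% and the longer motif in 6.4%. No window of the 8 genes held the longer motif. A match describes letters only, and nothing follows from it or its absence about binding.

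Entpd1, which supplies the AMP, lay at a like level in both genotypes. It read -0.76 and -0.92 on BMDC_RFF11 arrays, against -0.77 and -0.69 on BMDC_RFF arrays. The genotypes overlapped, with a log2 difference of -0.11 (SE 0.08).

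Among the receptors, Adora2a was the one that lay lower. Adora2a, which couples to cAMP production, had a signal of 655 and 639 intensity units on BMDC_RFF11 arrays, against 884 and 985 on BMDC_RFF arrays. Its scaled level was -1.14 and -1.18 on BMDC_RFF11 arrays, against -0.63 and -0.53 on BMDC_RFF arrays. Both BMDC_RFF11 arrays lay below both BMDC_RFF arrays by at least 0.50, while arrays of 1 genotype were 0.04 and 0.10 apart. The log2 difference was -0.58 (SE 0.07), which left 67.1% of the BMDC_RFF signal, and its rank from the lowest difference was 480 among the 17973 genes.

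Adora2b, the other receptor that raises cAMP, lay at nearly the same level in both genotypes. Its brighter probe read 1.03 and 1.11 on BMDC_RFF11 arrays, against 1.12 and 0.92 on BMDC_RFF arrays, with overlapping genotypes and a log2 difference of 0.05 (SE 0.09). Its dimmer probe read -0.73 and -0.64 on BMDC_RFF11 arrays, against -0.83 and -0.86 on BMDC_RFF arrays. On that probe the genotypes did not overlap, with a difference of 0.16, so the 2 probes of Adora2b agree on a small difference above 0 and disagree on overlap.

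Adora3, a receptor that lowers cAMP and is known for its part in mast cell activation, lay above its BMDC_RFF level. It read 3.32 and 3.42 on BMDC_RFF11 arrays, against 3.04 and 2.96 on BMDC_RFF arrays. The nearest arrays of the genotypes were 0.28 apart and the arrays of 1 genotype 0.10 and 0.08. The log2 difference was 0.37 (SE 0.07) or 1.29-fold, and it did not pass the adjusted threshold of the fit. In the RefSeq annotation Adora3 overlaps Tmigd3, and signal of the Adora3 probe from transcripts of either gene cannot be told apart here. Tmigd3 has 1 probe of its own on the array, which did not enter the fit. Adora1, the remaining receptor, had a signal of 4.80 and 5.44 intensity units on BMDC_RFF11 arrays, against 6.17 and 5.09 on BMDC_RFF arrays, with no array well above background.

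The genes that clear adenosine differed little. Adk, which phosphorylates adenosine back to AMP inside the cell, read 1.49 and 1.48 on BMDC_RFF11 arrays, against 1.64 and 1.74 on BMDC_RFF arrays. Both BMDC_RFF11 arrays lay lower, with a log2 difference of -0.21 (SE 0.06). The dimmer Adk probe also lay lower on both, at -1.77 and -1.80 on BMDC_RFF11 arrays, against -1.60 and -1.62 on BMDC_RFF arrays. Both probes of this kinase thus give like differences, of -0.21 and -0.17. Ada, which turns adenosine into inosine, read -0.55 and -0.26 on BMDC_RFF11 arrays, against -0.18 and -0.32 on BMDC_RFF arrays. Its genotypes overlapped, with a difference of -0.15 (SE 0.12), and its BMDC_RFF11 arrays were farther apart than those of any other of the 8 genes. Slc29a1, the transporter that lets adenosine cross the membrane along its gradient, read 2.86 and 2.87 on BMDC_RFF11 arrays, against 2.88 and 2.81 on BMDC_RFF arrays. These overlapped, with a difference of 0.02 (SE 0.06).

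**Figure D2:**
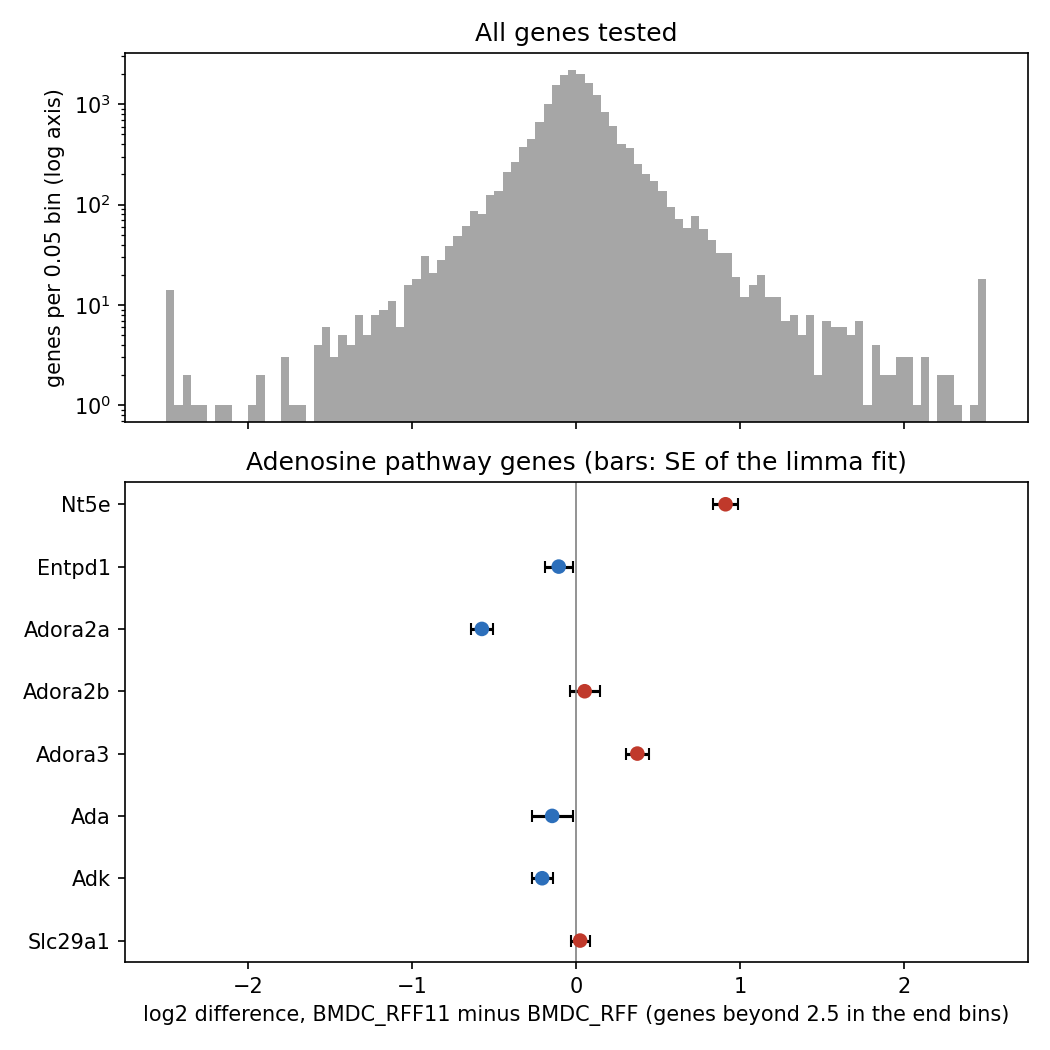
Upper panel, number of the 17973 genes tested in each bin of log2 difference (BMDC_RFF11 minus BMDC_RFF) on a log axis; lower panel, the same difference for the 8 adenosine pathway genes tested, as points with the SE of the limma fit, red above 0 and blue below. Nt5e at 0.91 and Adora2a at -0.58 stand apart from the other 6, which range from -0.21 to 0.37, and the 25th and 75th percentiles of all genes tested lie at -0.12 and 0.11.

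Across the set, 2 of the 8 genes tested passed an adjusted p of 0.05 in limma with Benjamini-Hochberg adjustment over all genes, Nt5e higher and Adora2a lower in BMDC_RFF11 cells, beside 1.88% of all genes tested (1.04% higher and 0.84% lower). Because the same comparison chose the set, nothing is read from that count. With any 1 array left out 0 of the 8 passed, and 0 or 1 of all genes did. The differences without 1 array were 0.85 to 0.97 for Nt5e and -0.63 to -0.53 for Adora2a. Under median scaling Adora2a, at -0.61, did not pass. The genotypes did not overlap for 4 of the 8 (Nt5e and Adora3 higher, Adora2a and Adk lower), beside 59.1% of all genes tested (26.8% higher and 32.3% lower). The median difference was -0.04 over the 8 and -0.01 over all genes tested.

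The 5 named genes whose 4 array values, each centred on the gene's mean, lay nearest to those of Nt5e were Lpar3, a receptor for lysophosphatidic acid, the cytoskeletal linker Dst, the B7 family protein Cd276, the GTPase Rab37 and the zinc finger gene Sall2. They were sought among 12292 named genes well above background on all 4 arrays. The root mean square difference from Nt5e was 0.02 for Lpar3, 0.03 for Dst, 0.03 for Cd276, 0.04 for Rab37 and 0.04 for Sall2 on the log2 scale. With 4 arrays in 2 groups, likeness means little more than a like difference between the genotypes. That difference was 0.94 for Lpar3, 0.94 for Dst, 0.86 for Cd276, 0.92 for Rab37 and 0.88 for Sall2. Under normexp background correction that of Cd276 was 0.45.

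Of 92 genes around the pathway in 5 lists 79 were tested, 1 rose, 2 fell and 76 did not pass, beside 1.04% higher and 0.84% lower among all genes tested. The median difference was -0.06 over the 79 and -0.01 over all genes tested. Of 17 P2 receptors and ATP release genes, through which cells sense and release ATP and related nucleotides, 14 were tested, 1 rose, 1 fell and 12 did not pass. P2ry13, a receptor for ADP, rose by 0.47 (SE 0.05, limma adjusted p = 0.0477), to -0.32 and -0.32 on BMDC_RFF11 arrays, against -0.78 and -0.79 on BMDC_RFF arrays. P2ry1, another ADP receptor, fell by 0.64 (SE 0.06, limma adjusted p = 0.0379), to -1.52 and -1.56 on BMDC_RFF11 arrays, against -0.92 and -0.88 on BMDC_RFF arrays. These 2 receptors for ADP therefore moved in opposite directions. P2ry13 did not pass under median scaling, at 0.44, and with 1 array left out neither passed, at 0.46 to 0.47 for P2ry13 and -0.66 to -0.62 for P2ry1.

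**Figure D3:**
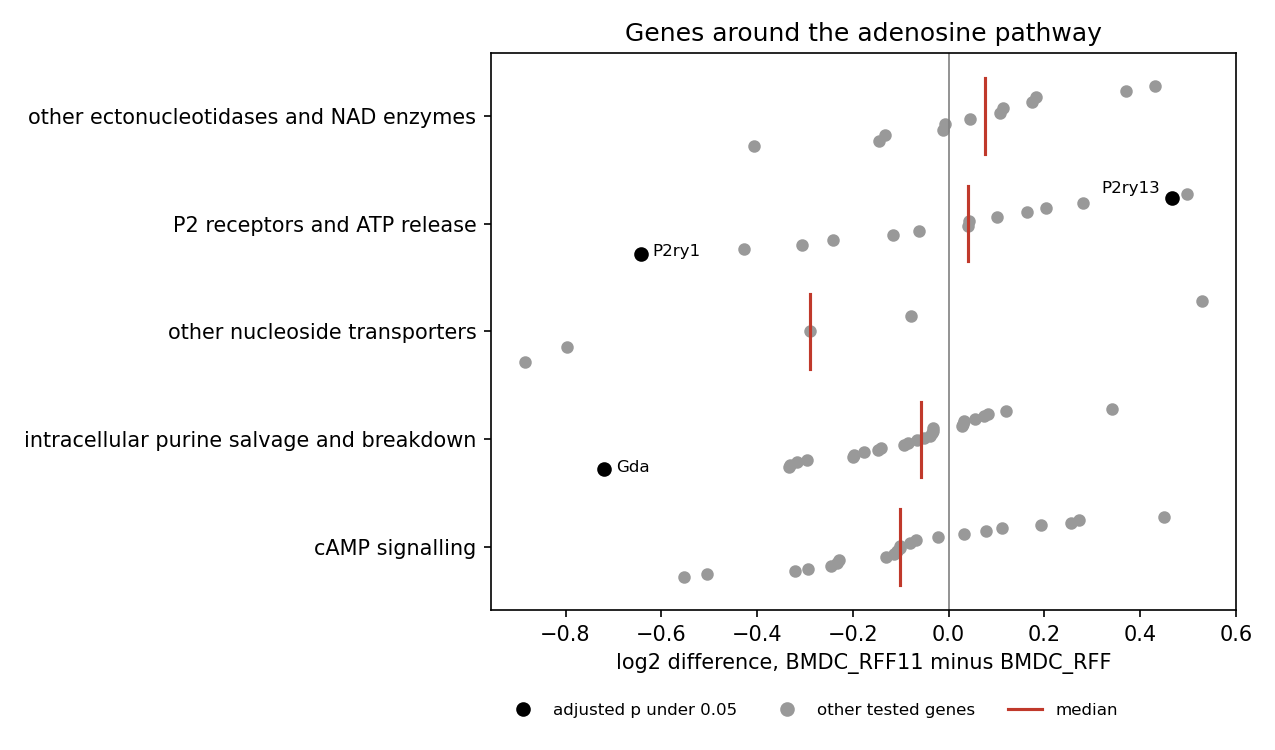
Log2 difference (BMDC_RFF11 minus BMDC_RFF) of the tested genes of 5 lists around the adenosine pathway, 1 point per gene spread vertically by rank, with genes of adjusted p under 0.05 in black and list medians as red lines. P2ry13 (0.47) lies above 0 and P2ry1 (-0.64) and Gda (-0.72) below, and the other 76 genes are grey.

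Inside the cell, Gda, which deaminates guanine, fell by 0.72 (SE 0.07, limma adjusted p = 0.0422), to 2.47 and 2.52 on BMDC_RFF11 arrays, against 3.14 and 3.28 on BMDC_RFF arrays. Without 1 array its difference was -0.79 to -0.65 and it did not pass. It was the gene called among 26 tested genes of purine salvage and breakdown (28 in the list), of which 1 fell, none rose and 25 did not pass, with a median of -0.06. For the counts that follow, 4328 of all 17973 genes tested had an unadjusted p under 0.05 in limma. Of 12 other ectonucleotidases and NAD enzymes tested (16 in the list) none passed in limma, with 3 at an unadjusted p under 0.05 and a median of 0.08. The farthest from 0 there was Acpp, an acid phosphatase that can form adenosine from AMP, at 0.43 (adjusted p = 0.0588). Its other probe stood at -0.26 but was not well above background on both arrays of either genotype. Of 5 other nucleoside transporters tested (6 in the list) none passed, with 3 at an unadjusted p under 0.05 and a median of -0.29. Slc28a3, a transporter that takes up nucleosides with sodium, read -5.64 and -5.27 on BMDC_RFF11 arrays, where it was not well above background, against -3.93 and -5.21 on BMDC_RFF arrays. Its difference of -0.88 (adjusted p = 0.33) rests on BMDC_RFF replicate 1, without which it was -0.25, and it was -1.52 without BMDC_RFF replicate 2 and -0.43 with normexp. Of 22 cAMP signalling genes tested (25 in the list), which act after the receptors, none passed, with 8 at an unadjusted p under 0.05 and a median of -0.10. The farthest was the adenylyl cyclase Adcy9 at -0.55 (adjusted p = 0.0809).

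Marker lists of other cells were read because Nt5e is known in lymphocytes and stromal cells and Adora3 in mast cells. Sums are over the listed genes with a probe, in multiples of the array's 75th percentile signal. The 9 dendritic cell markers summed to 1028 to 1108 on BMDC_RFF11 arrays, against 1110 to 1140 on BMDC_RFF arrays. None of these 9 passed in limma, and 4 lay above 0 and 5 below. Without overlap 3 lay higher and 2 lower, beside 26.8% higher and 32.3% lower among all genes tested. Their differences ran from -0.48 for Ccr7 to 0.41 for Ciita. The 9 neutrophil markers, all well above background on 4 arrays, summed to 70.6 to 78.9 on BMDC_RFF11 arrays, against 51.6 to 53.9 on BMDC_RFF arrays, and the 9 mast cell and basophil markers to 2.21 to 2.50 on BMDC_RFF11 arrays, against 1.68 to 1.77 on BMDC_RFF arrays. Both sums were thus higher in BMDC_RFF11 cells, as were Nt5e and Adora3. Among 9 neutrophil markers tested 2 rose, the granule protein genes Mpo by 0.74 (limma adjusted p = 0.0378, 0.45 with normexp) and Ngp by 0.54 (limma adjusted p = 0.0445), and 7 did not pass. Elane, a granule protein gene brighter than Mpo and Ngp, lay lower at -0.14 and was the 1 tested marker of that list below 0. Csf3r, S100a9 and S100a8, at differences of 0.22, 0.85 and 0.83, make up most of the neutrophil sum, and none of them passed. Among 6 mast cell and basophil markers tested Hdc, whose enzyme makes histamine, rose by 0.48 (limma adjusted p = 0.0477) and 5 did not pass. All 6 lay above 0, 4 of them without overlap, beside 26.8% higher without overlap among all genes tested. The highest was Mcpt8 at 1.13 (limma adjusted p = 0.0502, 0.86 with normexp). Kit, the brightest of them, stood at 0.25 with overlapping genotypes. Calls in these marker lists stand beside 1.04% higher and 0.84% lower among all genes tested. Of the mast cell and basophil markers 6 were well above background on all arrays, while Fcer1a and Ms4a2 were on none. The 8 T cell markers, 6 of them well above background on all arrays, summed to 3.72 to 4.25 on BMDC_RFF11 arrays, against 4.23 to 4.26 on BMDC_RFF arrays. Cd4 makes up most of that sum, at a difference of -0.25. Of 7 T cell markers tested, 5 lay higher in BMDC_RFF11 cells with no overlap and 1 lower, beside 26.8% higher and 32.3% lower among all genes tested. The median difference of these 7 markers was 0.30. Those higher include Cd3g at 1.40 (limma adjusted p = 0.104), Cd5 at 0.86 (limma adjusted p = 0.0705) and Cd3d at 0.63 (limma adjusted p = 0.186). With normexp these differences were 0.87 for Cd3g, 0.68 for Cd5 and 0.36 for Cd3d. Cd3e, brighter than Cd3g and Cd3d, stood at -0.13 with overlapping genotypes (limma adjusted p = 0.603). The 7 B cell markers, 2 of them well above background on all arrays, summed to 0.570 to 0.580 on BMDC_RFF11 arrays, against 0.463 to 0.467 on BMDC_RFF arrays. Among these, Ms4a1 and Pax5 were well above background on no array. The sum of B cell markers was higher in BMDC_RFF11 cells, where Blk, a kinase of B cells, stood at 2.49 (limma adjusted p = 0.0657, 0.94 with normexp) and was well above background on 2 BMDC_RFF11 arrays and 1 BMDC_RFF array. The 5 natural killer cell markers, 2 of them well above background on all arrays and Ncr1, Eomes and Gzma on none, summed to 0.457 to 0.464 on BMDC_RFF11 arrays, against 0.371 to 0.406 on BMDC_RFF arrays. The 8 stromal and endothelial markers, 1 of them well above background on all arrays and 5 on none, summed to 0.122 to 0.204 on BMDC_RFF11 arrays, against 0.190 to 0.243 on BMDC_RFF arrays. The 9 macrophage markers, 8 of them well above background on all arrays, summed to 298 to 304 on BMDC_RFF11 arrays, against 298 to 313 on BMDC_RFF arrays. The natural killer sum was higher in BMDC_RFF11 cells. Of its 2 markers tested Klrb1c rose by 1.14 (limma adjusted p = 0.0379, 0.60 with normexp). The other, Prf1, makes up most of that sum and stood at 0.13 (limma adjusted p = 0.323). The stromal and macrophage sums overlapped. Among macrophage markers the scavenger receptor gene Marco rose by 1.29 (limma adjusted p = 0.0322) and the Fc receptor gene Fcgr1 fell by 0.61 (limma adjusted p = 0.0424). The part of such cells in the differences of the adenosine genes was not tested.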

How the data were processed

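RNA of 4 samples was hybridised to 4 one-colour Agilent arrays on 1 slide. Agilent Feature Extraction 10.7.1.1 gave the deposited spot intensity, per the submitters' processing notes and the file headers, which list background subtraction and spatial and multiplicative detrending. The deposited intensity is not scaled between arrays. The authors' deposited table holds log2 values, centred on each probe's median over the 4 samples, and how they were made is not given in the sources used here. Its column medians are -0.0340 and 0.0201 for BMDC_RFF11 and 0.0531 and -0.0305 for BMDC_RFF.

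From the intensity, log2 signal was reduced by each array's 75th percentile over spots for genes. Outlier spots (127 to 176 per array) were left out, 0 were saturated, and repeat spots were averaged. A probe was kept if BMDC_RFF11 or BMDC_RFF had it well above background on its 2 arrays, and a gene was its brightest kept probe. The test was limma's moderated one (version 3.58.1, lmFit then eBayes, R version 4.3.3). Its p-values were adjusted by Benjamini-Hochberg over 17973 genes, with a threshold of 0.05. Precision is limited by having 2 arrays a genotype. The steps were tested on simulated data with independent noise for each array. That cannot show whether the scatter of 2 arrays covers the spread between mice.

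Probes were named by RefSeq accession (GRCm38.p6). Of the probes, 26055 received 1 symbol, 0 several and 13374 none. The array annotation uses mm9 per the file headers. Promoter sequences are from RefSeq (GRCm38.p6). Python 3.11.15 was used for motifs and drawing.

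The genes, lists and tests were chosen with earlier results of these data known. The genes named are the 9 pathway genes, Rbpj and Itgax, the genes of each list past the threshold (at most 3 each way) or else the farthest from 0, the 5 genes most like Nt5e, and marker genes at the extremes of a marker list. Other markers named for their detection, and the neighbouring genes and P2ry12 and P2ry14 among the additional observations, were named after their values were seen.

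Alternatives were normexp background correction (offset 50), quantile and median scaling, a filter on all 4 arrays or none, the mean of a gene's probes, the deposited log2 table, a trend and robust variance prior, the replicate number as a block, and leaving out each array. Normexp used the median spot signal, since the files hold no mean spot signal.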

Additional observations from a re-analysis of the deposited data

How the results depend on the processing

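The replicate block, the variance prior and the filters could not change the differences of the 8 adenosine genes tested, so their signs there were fixed in advance. The same holds for the mean of probes where a gene has 1 probe. Counting these fixed ones, 101 of 104 differences under the alternatives kept their sign. The exceptions lay near 0, Slc29a1 at -0.01 under median scaling and without BMDC_RFF replicate 2, and Adora2b at -0.05 without that array. Nt5e ranged from 0.68 with normexp to 0.97 without BMDC_RFF replicate 1. Of these 8 genes 1 passed under median scaling and 3 with the trend and robust prior, Adora3 being added. All genes gave 338 calls, 894 with normexp and 1547 with the trend and robust prior (694 higher and 853 lower). Without a filter on dim probes they gave 0, with 3654 at an unadjusted p under 0.05, and 0 with the replicate block, with 3677. Leaving out 1 array gave 0 to 1 calls, with 2976 to 3506 at an unadjusted p under 0.05; the lone array of a genotype is then assumed to vary like the other genotype. The adenosine genes, the P2 receptor list and the purine list gave 0 calls each without the filter, with the block and without any 1 array. The P2 receptor list gave 1 under median scaling. The ectonucleotidase list gave 2 with normexp, 1 with the filter on all 4 arrays and 3 with the trend and robust prior. The other transporters gave 1 with normexp and 2 with that prior, the purine list 4 with that prior, and the cAMP list 2 with normexp, 1 under median scaling, 1 with the filter on all 4 arrays and 4 with that prior. The block and the fits without 1 array leave fewer degrees of freedom. The causes of the other changes in counts were not tested. Replicate numbers 1 and 2 occur in both genotypes, and over genes the differences between replicates 1 and 2 of the genotypes correlated at -0.05, so the numbers were not taken to pair the arrays.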

Other observations

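The 2 protein-coding genes on each side of every adenosine gene in the RefSeq order were read, which is 36 places, 26 of them tested. Of these 26, 2 rose and 1 fell, beside 1.04% higher and 0.84% lower among all genes tested. The 3 are neighbours of Adora2a or Adora3. Upb1, an enzyme of pyrimidine breakdown next to Adora2a, fell to -5.21 and -5.29 on BMDC_RFF11 arrays, against -3.45 and -3.11 on BMDC_RFF arrays, a log2 difference of -1.97 (SE 0.13, limma adjusted p = 0.0322) that was -0.93 with normexp. Adora2a, at -0.58, lay in the same direction. On the other side of Adora2a, the adjacent gene Specc1l stood at 0.33 (adjusted p = 0.106) and the next, Bcr, a signalling protein known as a fusion partner of ABL in leukaemia, rose to -1.28 and -1.20 on BMDC_RFF11 arrays, against -2.18 and -2.28 on BMDC_RFF arrays, a difference of 0.99 (SE 0.07, adjusted p = 0.0322). Genes on opposite sides of Adora2a thus moved in opposite directions. I830077J02Rik, next to Adora3, rose to 1.24 and 1.17 on BMDC_RFF11 arrays, against 0.29 and 0.30 on BMDC_RFF arrays, a difference of 0.90 (SE 0.06, adjusted p = 0.0322), beside 0.37 for Adora3. Without 1 array none of these 3 neighbours passed, with differences of 0.94 to 1.04 for Bcr, -2.13 to -1.80 for Upb1 and 0.87 to 0.94 for I830077J02Rik.

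The neighbours of Nt5e lay near 0. Cep162 stood at -0.04, Snx14 at -0.02 and Syncrip at -0.01, and Tbx18 was not tested.

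The other receptors of the P2Y12 group also lay above 0 without passing. P2ry12 read -2.68 and -2.48 on BMDC_RFF11 arrays, against -3.21 and -2.94 on BMDC_RFF arrays, a difference of 0.50 (adjusted p = 0.133). P2ry14, a receptor for UDP-sugars, stood at 0.20 (adjusted p = 0.184), and its genotypes did not overlap.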
